A study of Mus musculus with 10 samples.

Results

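The 10 genes described here encode the main heat shock chaperones of the cytosol and the mitochondrion: Hspa1a, Hspa1b, Hspa8, Hsph1, Dnaja1, Dnajb1, Hsp90aa1, Hsp90ab1, Hspd1 and Hspe1. They were chosen by symbol, and all 10 were found by Ensembl identifier among the 48526 rows of the deposited count table. All 10 passed the low-count filter that left 13334 genes for testing. The series addressed the response of the aortic endothelium to acute mental stress. It held 5 libraries from non-stressed animals and 5 from animals stressed for 3 h on each of 3 consecutive days, with aortae taken afterwards. The strain of both groups is labelled ApoE, with no more given of the genotype, age or number of animals per library. The libraries are labelled as aortic endothelial cells sorted by fluorescence-activated cell sorting.

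Heat shock proteins are molecular chaperones that bind unfolded or partly folded proteins and help them reach their native form. HSP70 proteins work in cycles of ATP hydrolysis, which J-domain proteins start and nucleotide exchange factors reset, and hand some clients, among them the glucocorticoid receptor, on to HSP90. Some chaperone genes are inducible: they are silent or low at rest and are switched on by heat shock factor 1 when unfolded proteins build up. Others are constitutive, with a high level in unstressed cells, although heat can raise them further. Here Hspa1a, Hspa1b, Hsph1, Dnajb1 and Hsp90aa1 were taken as the 5 inducible members. Hspa8, Dnaja1, Hsp90ab1, Hspd1 and Hspe1 were taken as the 5 constitutive ones.

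The transcripts in these libraries went against the endothelial label. Of 12 endothelial markers, Tek, Cldn5 and Emcn had no reads, and Cdh5, the gene of VE-cadherin, reached at most 0.994 CPM (counts per 1000000 counts of a library). Kdr reached at most 2.35 CPM. Others of the 12 were present, with Pecam1 at 12.2 to 46.8 CPM. After TMM scaling of the libraries, Vwf averaged 31.6 CPM and Eng 23.9 CPM without stress, and 31.5 and 23.9 CPM with it. The summed endothelial list stood at 65.3 to 115 CPM in the non-stressed and 64.4 to 109 CPM in the stressed libraries. The 10 macrophage and monocyte markers summed to 21895 to 33932.5 CPM and 26649 to 33863 CPM, with the lysozyme gene Lyz2 alone at 15692 to 26748.5 CPM. In such bulk libraries, fewer cells of a type and less RNA per cell cannot be told apart. Total counts ran from 18020220 to 38237346 per library and a difference between the groups did not pass (exact permutation test, two-sided, p = 0.0952). The labels do not state that each replicate is a separate animal, and the p-values then cover only library-to-library spread, which may in part be technical. Each group held libraries with the X-linked RNA Xist and no Y-linked Ddx3y, and others with the reverse. The libraries of a group were thus not all repeats of the same source.

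The promoters of the inducible HSP70 pair are shown first, because these 2 genes varied most. Hspa1a (ENSMUSG00000091971) and Hspa1b (ENSMUSG00000090877) are single-exon genes on the minus strand of chromosome 17 in mm10, at chr17:34969190-34972156 and chr17:34956436-34959238. Heat shock factors bind repeats of the unit GAA in alternating orientation. The search covered an element of 2 units, GAANNTTC or TTCNNGAA, and one of 3 units, GAANNTTCNNGAA or TTCNNGAANNTTC, each on both strands. Every 3-unit match also contains a 2-unit match. Elements with a mismatched unit or another spacing were not searched for, so a window without a match may still hold such an element. RefSeq windows of GRCm38.p6, the assembly behind mm10, run from 250 bases before to 50 bases after a gene's start. The 250 bases before the start of each gene read as follows, with the 2-unit element in capitals.
Hspa1a, chr17:34972157-34972406, minus strand: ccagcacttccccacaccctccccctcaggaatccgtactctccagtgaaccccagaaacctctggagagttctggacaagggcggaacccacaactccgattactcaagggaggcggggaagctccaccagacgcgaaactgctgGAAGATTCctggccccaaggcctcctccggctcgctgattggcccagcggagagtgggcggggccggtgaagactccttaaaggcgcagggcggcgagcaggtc
Hspa1b, chr17:34959239-34959488, minus strand: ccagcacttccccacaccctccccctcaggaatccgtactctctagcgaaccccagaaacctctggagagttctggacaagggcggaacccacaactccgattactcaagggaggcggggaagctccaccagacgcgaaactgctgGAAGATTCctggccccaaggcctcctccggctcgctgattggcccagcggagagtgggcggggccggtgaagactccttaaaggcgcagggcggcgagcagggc
Over the whole 300-base window the copies differed at 4 positions, counted from 1 at its 5′ end, from Hspa1a to Hspa1b: C44T, T47C, T249G and C276T. Both held the element GAAGATTC from 104 to 97 bases before the start. Neither window held a 3-unit match.

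Windows were matched for 7 of the 10 genes; the others are Hspa8, Hsp90aa1 and Hsp90ab1. A 3-unit element was found for 3 of the 7, Hspd1, Hspe1 and Hsph1, against 0.603% of all 32851 windows and 0.662% of the 27025 genes they belong to. A 2-unit element was found for 6 of the 7, against 15.1% of windows and 17.0% of genes. Hspd1 and Hspe1 share their element and the windows of Hspa1a and Hspa1b are near copies, so the counted genes are not separate cases. Stretches of 30 bases around these elements are given below, with the element in capitals.
Hspd1, chr1:55088053-55088082, minus strand: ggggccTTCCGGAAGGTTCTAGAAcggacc
Hspe1, chr1:55088053-55088082, plus strand: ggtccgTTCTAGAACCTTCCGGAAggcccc
Hsph1, chr5:149636280-149636309, minus strand: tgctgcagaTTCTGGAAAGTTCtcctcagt
Dnaja1, chr4:40722333-40722362, plus strand: aaaagcctctaGAAAATTCtacgaggctcg
The stretches of Hspd1 and Hspe1 are the same 30 bases read from opposite strands, since these genes start close together and point away from each other. The 18-base element lay 89 to 72 bases before the start of Hspe1 and 144 to 127 bases before a RefSeq start of Hspd1. The window of the other RefSeq start of Hspd1, at chr1:55088243, held neither element. From that start the 18-base element lies downstream, inside the gene. The 3-unit element of Hsph1 lay downstream of the start, at bases 16 to 28 with the start as base 1. From the other RefSeq start of the gene it lay at bases 37 to 49. Both windows of Hsph1 also held a separate 2-unit match, ttctcgaa, before the start and outside the stretch shown. The 2-unit element of Dnaja1 lay 124 to 117 bases before the start. The windows of Dnajb1 held neither element. These matches describe letters in a window and show no binding.

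The inducible HSP70 genes spanned a wide range of levels within each group, and the groups did not separate. Hspa1a encodes a cytosolic HSP70 that is barely made at rest and strongly made after heat. It stood at 21.7, 2.72, 1.39, 31.6 and 17.0 CPM in non-stressed replicates 1 to 5, and at 6.14, 39.3, 55.0, 22.0 and 21.1 CPM in stressed replicates 1 to 5. Non-stressed replicates 2 and 3 were lowest and stressed replicates 2 and 3 highest, and the groups overlapped. The highest library stood 39.6-fold above the lowest. The means were 14.9 ± 12.8 CPM (SD, n = 5) without and 28.7 ± 18.8 CPM (SD, n = 5) with stress. The log2 fold change of stressed over non-stressed was 0.96 (SE 0.67, 95% interval -0.48 to 2.39, adjusted p = 0.950 in edgeR's quasi-likelihood test).

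Hspa1b encodes a nearly identical HSP70 protein. Its levels were 55.3, 5.36, 2.35, 97.9 and 41.3 CPM in the non-stressed and 14.1, 88.2, 125, 59.8 and 81.8 CPM in the stressed libraries. The order of the lowest 3 libraries was that of Hspa1a, and the range was 53.0-fold. The log2 fold change was 0.87 (SE 0.73, 95% interval -0.68 to 2.42, adjusted p = 0.950). The open reading frames of the copies were 99.4% identical, with an unbroken identical run of 638 bases, and 58.8% of all 50-base windows of the Hspa1a transcript also occurred in that of Hspa1b. The sources do not state how reads matching both were counted, and the split between the copies is uncertain. Hspa1a took 20.5% to 37.1% of the reads of the pair. An annotated gene without reads, Gm20481, also spans 2225 bases of Hspa1a on the other strand. Summed into 1 row, the pair gave 0.90 on the log2 scale (SE 0.71, adjusted p = 0.950).

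The size of this difference depended on the libraries and on the fit. For Hspa1a it ran from 0.58, without stressed replicate 3, to 1.44, without non-stressed replicate 4. With quality weights in limma-voom it was 2.58 (unadjusted p = 0.00268, adjusted p = 0.340), and that of Hspa1b 2.91 (unadjusted p = 0.00169, adjusted p = 0.340). Limma-voom was not run without the weights, so their part in this rise was not tested. The libraries were also split by sex-linked transcripts after the data had been seen. Xist, the RNA that silences an X chromosome, was present in 4 libraries, 2 of each group. Among them the mean log2 CPM of Hspa1a differed by -0.74, stressed minus non-stressed. Among the other 6, 3 of each group, where Y-linked Ddx3y exceeded 100 reads, it differed by 2.84. These 6 include non-stressed replicates 2 and 3, the lowest in Hspa1a. Such plain differences of means are not fold changes of the edgeR fit. In that fit, an interaction term between these sets and the group was 2.20 and did not pass (unadjusted p = 0.135, adjusted p = 1 in edgeR). A difference was thus not detected after adjustment at this spread, and the intervals do not show that there was none.

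**Figure D1:**
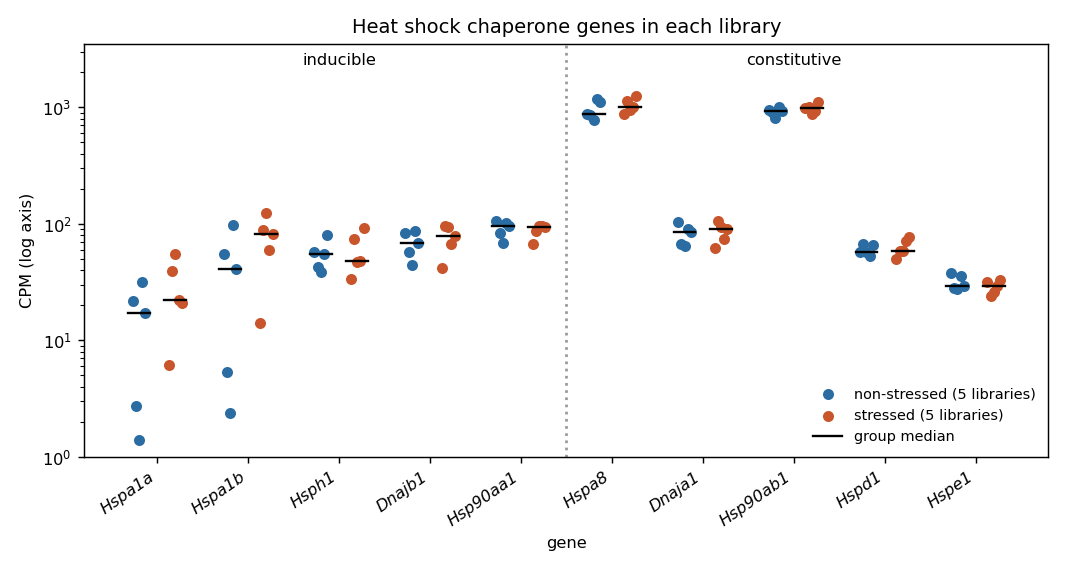
Level of each gene in each library in CPM on a log axis, with non-stressed libraries in blue, stressed ones in orange and the median of each group as a bar. Hspa1a and Hspa1b spread over more than a decade in the non-stressed group, while Hspa8 lies between 784 and 1244 CPM and Hsp90ab1 between 806 and 1110 CPM.

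Hspa8 (ENSMUSG00000015656, chr9:40800984-40810087, plus strand) encodes HSC70, the constitutive HSP70 that also uncoats clathrin vesicles and serves in protein import and turnover. Its levels were 879, 867, 784, 1184 and 1104 CPM in the non-stressed and 881, 1139, 944, 1013 and 1244 CPM in the stressed libraries. All 10 values lay within 1.59-fold, and 1 stressed library exceeded all non-stressed ones. The log2 fold change was 0.12 (SE 0.12, 95% interval -0.13 to 0.37, adjusted p = 0.961), from 0.04 without stressed replicate 5 to 0.21 without non-stressed replicate 4. Per length of the summed exons, the pair Hspa1a and Hspa1b together reached between 0.00717 and 0.287 times the level of Hspa8, and lay below it in 10 of 10 libraries. By the length of the principal transcript, a choice made after seeing the data, this ratio was 0.00399 to 0.160. By the length of the summed exons, the log2 of the ratio averaged -4.49 (SD 2.03, n = 5) without stress and -3.05 (SD 1.12, n = 5) with it. The difference of 1.44 (SE 1.04) was within the spread (exact permutation test over libraries, two-sided, p = 0.230, adjusted p = 0.476 over 3 pairs).

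Hsph1 (ENSMUSG00000029657, chr5:149614287-149636376, minus strand) encodes HSP110, a nucleotide exchange factor that resets HSP70. It stood at 57.5, 42.3, 38.4, 54.8 and 80.7 CPM in non-stressed and 33.7, 73.4, 47.1, 47.7 and 92.0 CPM in stressed libraries. The lowest and the highest value both came from stressed libraries, replicates 1 and 5. Its log2 fold change was 0.11 (SE 0.25, 95% interval -0.42 to 0.64, adjusted p = 0.988), and it was -0.12 without stressed replicate 5.

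Of the J-domain genes, Dnajb1 (ENSMUSG00000005483, chr8:83608193-83612653, plus strand) encodes HSP40, the heat-induced partner of HSP70. Its levels were 82.7, 57.7, 43.9, 87.2 and 68.8 CPM without and 41.7, 95.5, 93.1, 67.5 and 79.2 CPM with stress. Stressed replicates 2 and 3 lay above every non-stressed library and stressed replicate 1 below every one. Between the groups, the log2 fold change was 0.15 (SE 0.21, 95% interval -0.30 to 0.61, adjusted p = 0.971). It was 0.02 without non-stressed replicate 3, 0.30 without stressed replicate 1 and 0.40 with quality weights in limma-voom. Dnaja1 (ENSMUSG00000028410, chr4:40722150-40737149, plus strand) encodes a farnesylated J-domain protein that is abundant at rest. It stood at 104, 67.7, 64.6, 89.8 and 84.6 CPM in non-stressed and 61.3, 106, 93.5, 73.7 and 90.0 CPM in stressed libraries, and its log2 fold change was 0.06 (SE 0.16, 95% interval -0.28 to 0.39, adjusted p = 0.992). Without stressed replicate 2 this was -0.04, and without non-stressed replicate 2 or 3 it was -0.01 or -0.03. In CPM, without regard to length, Dnaja1 stood above Dnajb1 in 10 of 10 libraries. Per length the order turned. Dnajb1 then exceeded Dnaja1 in 10 of 10 libraries, by 1.83-fold to 2.68-fold, or by 1.28-fold to 1.87-fold with the length of the principal transcript. That ratio differed between the groups by 0.09 (SE 0.12) on the log2 scale, less than its spread (exact permutation test, two-sided, p = 0.508, adjusted p = 0.508 over 3 pairs). Dnaja1 shares 608 bases of its locus with Smu1 on the other strand, and the strand setting of the counting is not given.

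Hsp90aa1 (ENSMUSG00000021270, chr12:110690605-110702728, minus strand) encodes the inducible HSP90 alpha and Hsp90ab1 (ENSMUSG00000023944, chr17:45567775-45573271, minus strand) the constitutive HSP90 beta. Hsp90aa1 was at 105, 82.6, 68.8, 101 and 96.1 CPM in non-stressed and 67.2, 87.2, 94.8, 96.0 and 93.9 CPM in stressed libraries. Its log2 fold change was -0.04 (SE 0.13, 95% interval -0.32 to 0.23, adjusted p = 0.993), and it was 0.11 with quality weights in limma-voom and 0.04 without stressed replicate 1. Hsp90ab1 was at 950, 915, 806, 1003 and 929 CPM without and 989, 1008, 881, 934 and 1110 CPM with stress. The groups overlapped, although stressed replicates 2 and 5 lay above every non-stressed library. Its log2 fold change had the narrowest interval of the 10 genes, 0.10 (SE 0.08, 95% interval -0.06 to 0.26, adjusted p = 0.950), and it was 0.05 without stressed replicate 5 or non-stressed replicate 3. Hsp90aa1 reached 0.0519 to 0.0846 times the level of Hsp90ab1 per length. On the log2 scale this ratio averaged -3.74 (SD 0.153, n = 5) without stress and -3.88 (SD 0.263, n = 5) with it, a difference of -0.14 (SE 0.14; exact permutation test, two-sided, p = 0.317, adjusted p = 0.476 over 3 pairs).

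Hspd1 (ENSMUSG00000025980, chr1:55077835-55088243, minus strand) and Hspe1 (ENSMUSG00000073676, chr1:55088132-55091307, plus strand) encode HSP60 and HSP10, which together form the folding chamber of the mitochondrial matrix. Each has a promoter window that holds the 30-base stretch shown above. Hspd1 ranged from 53.2 to 67.2 CPM in non-stressed and from 49.6 to 76.9 CPM in stressed libraries. Its log2 fold change was 0.07 (SE 0.12, 95% interval -0.19 to 0.34, adjusted p = 0.981), and it was -0.02 without stressed replicate 5. Hspe1 ranged from 27.3 to 38.0 CPM and from 24.1 to 33.0 CPM, with a log2 fold change of -0.13 (SE 0.14, 95% interval -0.41 to 0.16, adjusted p = 0.961), and leaving out 1 library gave -0.19 to -0.06. The genes overlap by 112 bases on opposite strands.

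Read across the 10 genes, none passed the adjusted threshold of 0.05 in edgeR in either direction, and none passed an unadjusted p of 0.05 there. With quality weights in limma-voom, Hspa1a (unadjusted p = 0.00268) and Hspa1b (unadjusted p = 0.00169) were under 0.05 before adjustment. Over all 13334 genes tested, 0.0075% passed the adjusted threshold and 5.53% the unadjusted one. The groups overlapped for each of the 10, against 1.11% of tested genes whose groups do not overlap. DESeq2, limma-voom and the other alternatives also called 0 of the 10. Of the members, 8 had a log2 fold change above 0 and 2 below, beside 50.9% of all tested genes above 0. Their median was 0.11, beside 0.004 over all tested genes. The 5 inducible members had a median of 0.15 and the 5 constitutive ones 0.07; the difference between these medians was not tested. For 8 of the 10, all but Hspa1a and Hspa1b, the 95% interval lay inside 0.7 on the log2 scale in both directions. This bound was not planned, so the count describes the intervals and is no test of equal levels.

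**Figure D2:**
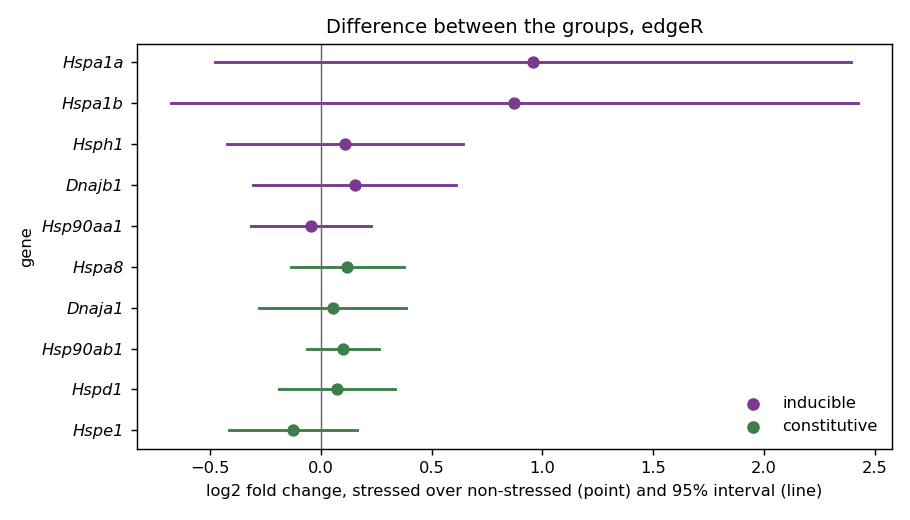
Log2 fold change of stressed over non-stressed libraries for each gene (point) with its 95% interval (line), inducible genes in purple and constitutive ones in green. Each interval includes 0, and those of Hspa1a and Hspa1b, up to 2.39 and 2.42, are the widest.

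Levels can be ordered between genes per length, as CPM per kb of summed exons. The median over 10 libraries was 314 for Hsp90ab1 and 227 for Hspa8, then 24.0 for Hsp90aa1, 23.1 for Dnajb1, 22.1 for Hspd1, 20.5 for Hspa1b and 19.8 for Hspe1. Dnaja1 followed at 10.1, Hspa1a at 7.21 and Hsph1 at 7.05. The order separated in all 10 libraries, with ranges that do not overlap, at only 2 of these steps, between Hspa8 and Hsp90aa1 and between Hspe1 and Dnaja1. Hsp90ab1 was above Hspa8 in 10 of 10 libraries. That order depended on the length taken: by the length of the principal transcript Hspa8 had 409 and Hsp90ab1 374 CPM per kb, and Hspe1 moved to the third place with 37.6. Hspa8 and Hsp90ab1 made up 75.5% to 85.9% of the reads of the 10 genes. The 10 together took 0.189% to 0.292% of all counts of a library.

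The spread of the inducible HSP70 genes was large beside that of other genes of their level. The SD of log2 CPM within groups was 1.63 for Hspa1a and 1.85 for Hspa1b. It was smaller in 99.8% of the 1825 tested genes within 0.5 log2 CPM of Hspa1a, whose median was 0.26, and in 99.8% of the 1956 such genes of Hspa1b. Hsph1, with an SD of 0.50, exceeded 97.9% of the genes of its level, and Dnajb1, with 0.45, exceeded 97.6%. Dnaja1 (SD 0.30) stood at 93.8%, Hspa8 (0.23) at 89.8% and Hsp90aa1 (0.24) at 85.3%. Hspd1 (0.21) stood at 69.7%, Hsp90ab1 (0.12) at 61.5% and Hspe1 (0.21) at 40.8%. The 4 highest shares thus belonged to inducible members.

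The same libraries were low for most cytosolic members. Non-stressed replicates 2 and 3 and stressed replicate 1 held the 3 lowest levels of 6 of the 10 genes: Hspa1a, Hspa1b, Hsph1, Dnaja1, Dnajb1 and Hsp90aa1. The same 3 libraries were lowest for 1.42% of all tested genes. This set of libraries was picked after the values were seen, and it mixes both groups. For Hspa8 the lowest were non-stressed replicates 3, 2 and 1. For Hsp90ab1 stressed replicate 3 was among the lowest, for Hspd1 stressed replicate 1 and non-stressed replicates 4 and 1 were lowest, and for Hspe1 stressed replicates 2 and 3 and non-stressed replicate 3.

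**Figure D3:**
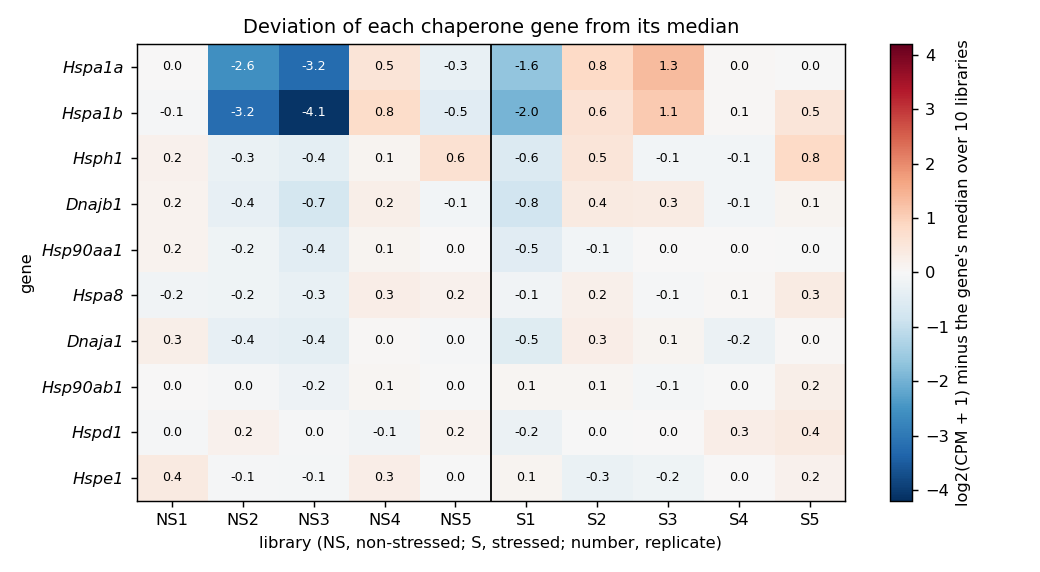
Deviation of each gene from its median over the 10 libraries, on the log2(CPM + 1) scale, blue for below and red for above, with non-stressed libraries left of the line and stressed ones right. The blue columns of NS2, NS3 and S1 run through Hspa1a, Hspa1b, Hsph1, Dnaja1, Dnajb1 and Hsp90aa1.

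Over the 10 libraries, on the log2(CPM + 1) scale, the level of Hspa1a went with that of Dnajb1 (Pearson's r = 0.891, permutation p = 0.00131, adjusted p = 0.0197 over 45 pairs of members; Spearman's rho = 0.879, permutation p = 0.0016). Without non-stressed replicates 2 and 3, the libraries farthest from the median of Hspa1a, r was 0.941, and within groups it was 0.922. Dnaja1 and Dnajb1 had r = 0.936 (permutation p = 5e-05, adjusted p = 0.00113; rho = 0.939, permutation p = 0.00022), and 0.893 without the 2 farthest libraries. Hspa1a and Hspa8 had r = 0.675 (permutation p = 0.0354, adjusted p = 0.106; rho = 0.564, permutation p = 0.0974), which was 0.316 without non-stressed replicates 2 and 3 and so rested on them. Hspd1 and Hspe1, which share the element shown above, had r = -0.124 (permutation p = 0.733, adjusted p = 0.868; rho = -0.212, permutation p = 0.562), and -0.411 without the 2 farthest libraries.

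Leaving out the pair of copies, the 27 pairs of cytosolic members had a median r of 0.675, from 0.335 to 0.936. The 16 pairs of Hspd1 or Hspe1 with a cytosolic member had a median of 0.141, from 0.00986 to 0.535. These pairs share libraries and members, so they are a description. The genes most like Hspa1a by r, among 10130 tested genes averaging 1 log2 CPM or more, with the other copy and unnamed predicted genes left out, were Snx20 at 0.952, Pias4 at 0.919, Lrpap1 at 0.903, Ciart at 0.896 and Dnajb1 at 0.891. Those most like Hspa8 were Phf11c at 0.985, Cacybp at 0.917, Foxred1 at 0.909, Ahsa2, the gene of an HSP90 co-chaperone, at 0.899 and Sfpq at 0.891. An r of at least 0.8 with Hspa1a was reached by 0.516% of the 10849 genes at that level, predicted ones included, and the median r over them was -0.02. Of the other members, Dnaja1 held place 33 in likeness to Hspa1a, Hsp90aa1 place 93 and Hspa8 place 215, while Hspd1 and Hspe1 held places 4168 and 4359 of the 10130.

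**Figure D4:**
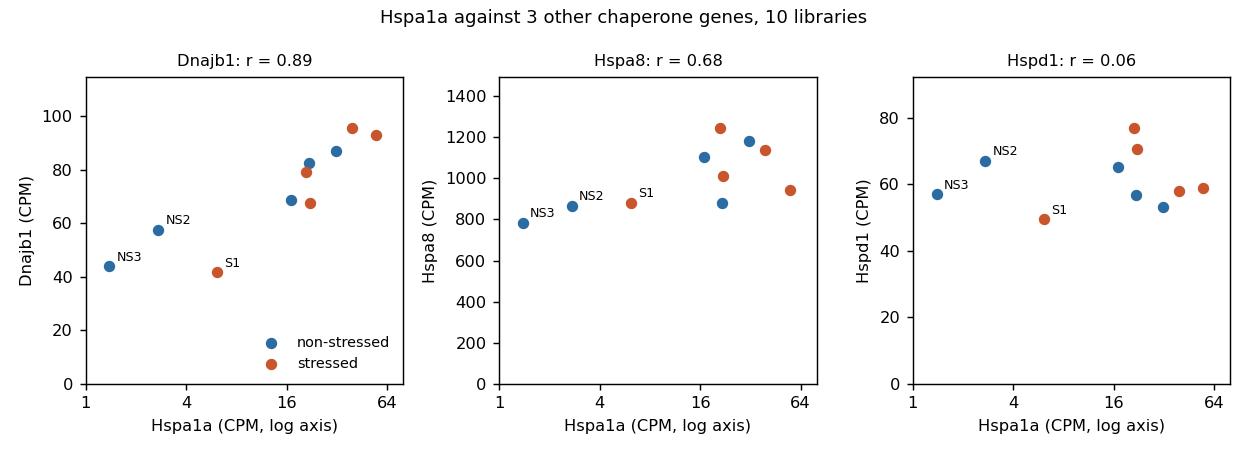
Dnajb1, Hspa8 and Hspd1 in CPM on the vertical axes against Hspa1a in CPM on a log axis, 1 point per library, non-stressed in blue and stressed in orange. On the log2(CPM + 1) scale Pearson's r with Hspa1a was 0.891 for Dnajb1, 0.675 for Hspa8 and 0.0634 for Hspd1.

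Other measures of a library were set beside Hspa1a, 16 in all. A list of genes entered as the mean of its genes' log2 levels in a library, not as the summed CPM printed beside it. Fos, an immediate early gene, was at 654, 379, 398, 1071 and 647 CPM in non-stressed and 806, 755, 1812, 970 and 965 CPM in stressed libraries. The libraries lowest in Hspa1a, non-stressed replicates 2 and 3, were also lowest in Fos, and stressed replicate 3 was highest in both. The relation had r = 0.834 (permutation p = 0.00245, adjusted p = 0.0392; rho = 0.770, permutation p = 0.0133), 0.799 within groups, and 0.550 without non-stressed replicates 2 and 3. Non-stressed replicates 2 and 3 were also the most deeply sequenced, and total counts had r = -0.733 with Hspa1a (permutation p = 0.0161, adjusted p = 0.0859; rho = -0.636, permutation p = 0.0546), but -0.286 without them and -0.657 within groups. For the list of 13 immediate early genes r was 0.673 (permutation p = 0.0285, adjusted p = 0.0883; rho = 0.673, permutation p = 0.0394), and 0.540 without them. Hsf1, the gene of heat shock factor 1, had r = -0.0109 (permutation p = 0.976, adjusted p = 0.976; rho = 0.0303, permutation p = 0.946), and -0.016 without them. Among 9 lists of cell type markers the smallest adjusted p was that of the 8 smooth muscle and fibroblast genes, which summed to 8.42 to 17.4 CPM in non-stressed and 11.8 to 18.6 CPM in stressed libraries, with Cnn1 and Dcn at 0. Their r was 0.758 (permutation p = 0.0111, adjusted p = 0.0859; rho = 0.515, permutation p = 0.133), and 0.518 without non-stressed replicates 2 and 3. Endothelial markers ran the other way, with r = -0.673 (permutation p = 0.0331, adjusted p = 0.0883; rho = -0.588, permutation p = 0.0814), and -0.316 without these libraries. So did 6 dendritic cell markers, which summed to 93.7 to 207 CPM in non-stressed and 83.3 to 137 CPM in stressed libraries, with r = -0.699 (permutation p = 0.0228, adjusted p = 0.0883; rho = -0.576, permutation p = 0.0884), and -0.425 without them. Of the 16 relations, that with Fos was the 1 that passed at an adjusted p of 0.05. The part of any of these measures in the spread of Hspa1a was not tested.

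The wider chaperone network was read from 9 lists of related genes. Of the 102 genes in them, 88 were tested, 56 with a log2 fold change above 0 and 32 below, with a median of 0.06. None passed the adjusted threshold in edgeR (0 higher, 0 lower), and 5 had an unadjusted p under 0.05, 4 of them higher. That is close to the 5.53% of all tested genes under 0.05, and the share above 0 stands beside 50.9% of all tested genes. The factors that switch the inducible genes were at a moderate level. Hsf1 averaged 47.2 CPM (SD 4.18, n = 5) without and 49.7 CPM (SD 7.60, n = 5) with stress, and Hsf2 averaged 24.2 CPM (SD 2.27, n = 5) and 24.8 CPM (SD 2.60, n = 5). Hsbp1, which encodes a small protein that binds heat shock factor 1, had 0.13 on the log2 scale (SE 0.10, adjusted p = 0.950).

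Among the 15 HSP90 paralogs and co-chaperones, 12 had a positive and 3 a negative log2 fold change, with a median of 0.07. Ahsa1 encodes the activator of HSP90's ATPase. It was at 69.5, 73.0, 64.8, 81.7 and 81.8 CPM in non-stressed and 83.7, 90.3, 87.6, 85.1 and 108 CPM in stressed libraries. Every stressed library lay above every non-stressed one, as for Fkbp5 and for no other of the 88 genes, beside 1.11% of all tested genes. The log2 fold change of Ahsa1 was 0.30 (SE 0.10, 95% interval 0.08 to 0.51, adjusted p = 0.829). Fkbp5, which encodes an HSP90 co-chaperone of the glucocorticoid receptor and is itself a glucocorticoid target, ran from 10.6 to 24.5 CPM in non-stressed and from 25.2 to 58.4 CPM in stressed libraries. Its log2 fold change was 1.14 (SE 0.23, adjusted p = 0.349). It passed with DESeq2 (adjusted p = 0.00392) and without a low-count filter (adjusted p = 0.0106). The most abundant per length in this list was Hsp90b1, the HSP90 of the endoplasmic reticulum, at 101 CPM per kb and a log2 fold change of 0.06 (SE 0.12).

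Of the other HSP70 and HSP110 genes, 8 of 11 were tested, 2 with a positive and 6 with a negative log2 fold change. Hspa4, an HSP110 relative of Hsph1, had -0.18 (SE 0.08, unadjusted p = 0.0393, adjusted p = 0.877 in edgeR), Hspa2 0.47 (SE 0.28), and Hspa5, the HSP70 of the endoplasmic reticulum, -0.01 (SE 0.11). Of 23 other J-domain genes 13 were above 0 and 10 below, with Dnajc21 at 0.27 (SE 0.16), Dnajb6 at 0.24 (SE 0.15), Dnaja2 at -0.01 (SE 0.06) and Dnajc7 at 0.05 (SE 0.09). Of the nucleotide exchange factors and HSP70 co-chaperones, 11 of 12 were tested, 4 above 0 and 7 below. Stub1, the ubiquitin ligase CHIP, had 0.27 (SE 0.15), St13 0.13 (SE 0.09), Bag1 -0.03 (SE 0.10) and Bag6 -0.05 (SE 0.07).

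The cytosolic chaperonin and prefoldin genes, which fold actin and tubulin, had a median of 0.02, with 10 of 14 above 0. Cct5 had 0.16 (SE 0.08), Pfdn6 0.16 (SE 0.10), Pfdn5 0.07 (SE 0.10) and Cct2 0.02 (SE 0.07). Of the 9 mitochondrial chaperones and proteases 6 were above 0 and 3 below. Clpp had 0.26 (SE 0.22), Clpb 0.21 (SE 0.21), the mitochondrial HSP70 gene Hspa9 -0.06 (SE 0.09) and the mitochondrial HSP90 gene Trap1 0.05 (SE 0.10). The small heat shock proteins were low: 4 of 10 were tested, at means of at most 6.61 CPM, with Hspb6 at 0.49 (SE 0.39), Cryab at 0.59 (SE 0.76), Hspb11 at 0.13 (SE 0.27) and Hspb9 at -0.31 (SE 0.65). Hspb1, the gene of HSP27, had 0 reads in each library, and 3 counts, the limit that 0 reads allow, would be 0.0785 to 0.166 CPM in these libraries (counting error only). Of the other heat-responsive genes 12 of 14 were tested, with a median of 0.16 and 10 above 0. Ubb, which encodes a polyubiquitin, had 0.18 (SE 0.07, unadjusted p = 0.0247, adjusted p = 0.874 in edgeR), and Hmox1 had -0.002 (SE 0.12).

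**Figure D5:**
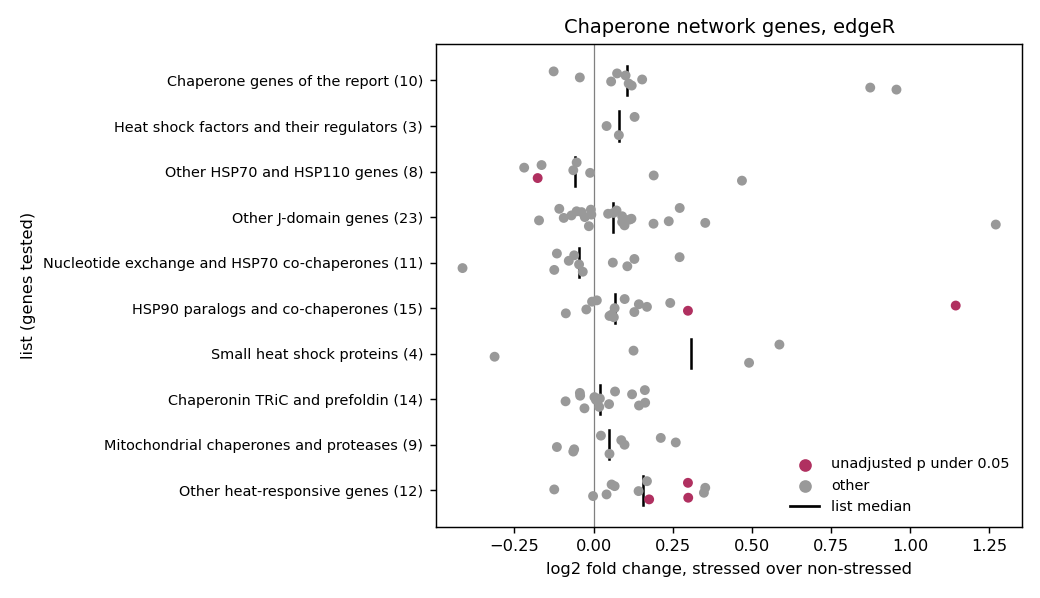
Log2 fold change of stressed over non-stressed libraries for each tested gene (point) of the 10 described genes and the related lists, with the list median as a bar and genes at an unadjusted p under 0.05 in red. The list medians lie between -0.06 and 0.31, and Fkbp5, at 1.14, is the highest of the HSP90 co-chaperones.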

How the data were processed

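Read counts were analysed for 10 mouse libraries, 5 non-stressed and 5 stressed, grouped by sample title. The authors deposited raw counts per Ensembl gene, not normalized; the tools listed per the submitters' processing notes are Trimmomatic, STAR and featureCounts, and the build is mm10. For versions, annotation and strand setting, nothing is given in the sources used here. Symbols, coordinates and exon lengths came from GENCODE vM21, which matched 48058 of 48526 identifiers. The test was edgeR's quasi-likelihood F test (version 4.0.16, R 4.3.3; filterByExpr at a minimum count of 10, TMM, group as the single term, Benjamini-Hochberg at 0.05 over 13334 genes). Standard errors are the log2 fold change over the root of F. Levels in CPM use plain library totals of 18020220 to 38237346. The test was first tested on simulated data. It recovered 43.3% of genes set to change 1.5-fold, 53.7% of those at 2-fold and 66.7% of those at 4-fold. There were 9 false calls, so changes of these sizes were often missed. Ratios were compared by an exact permutation test over 252 assignments (scipy 1.17.1; smallest p 0.00794), and correlations with 100000 permutations. Alternatives were DESeq2 1.42.0, limma-voom (3.58.1) using sample weights, scaling by RLE or upper quartiles, a stricter filter and none, robust dispersions, a 0.1 threshold, a replicate block, the summed copies, ratios without length correction and each library left out; added after seeing the data were a covariate for Y-linked transcripts and the principal transcript length (for level order and ratios). The labels name the PicoPure and TruSeq Stranded kits. Genes named are the 10 members, the 2 genes of each list with the smallest p and the 2 highest per length, Hsf1, Hsf2, the 5 genes most like each of Hspa1a and Hspa8, label-check markers, Fos and Egr1, and exceptions said to be so; 2 genes of the related lists are not reported here. The members and lists were chosen with earlier results of these data known.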

Additional observations from a re-analysis of the deposited data

Results flagged for a closer look

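Stressed replicate 3 stood far from the other 4 stressed libraries in 2 immediate early genes that were set beside the chaperones. Its Fos level was 1812 CPM, where the other stressed libraries lay between 755 and 970 CPM. Its Egr1 level was 445 CPM, where the other stressed libraries lay at or below 12.05 CPM. The same library held the highest level of Hspa1a, 55.0 CPM, and of Hspa1b, 125 CPM, but neither was far enough from the rest of its group to be singled out. In all, 32 sets of 5 libraries were examined in this way, and chance singles out about 1 set in 20. Without this library the log2 fold change of Hspa1a was 0.58 in place of 0.96.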

How the results depend on the processing

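None of the 10 chaperone genes passed at an adjusted p of 0.05 under any of the 21 alternatives run, and the lowest adjusted p among them was 0.340. Over all genes, 1 was called, Chil3, and the count was 19 with DESeq2, 10 without a low-count filter, 2 with limma-voom and its quality weights, and 4 with the replicate number as a block. Leaving out each library gave 1 to 2 calls, with 2 without non-stressed replicate 5. In the wider network 0 genes were called, and 1, Fkbp5, with DESeq2, without a low-count filter and with the replicate block. The sign turned for Hsp90aa1 with limma-voom, to 0.11, and by leaving out 1 library for 4 genes. Hsp90aa1 then ran from -0.13 to 0.04, with 0.01 without non-stressed replicate 1, 0.002 without non-stressed replicate 4 and 0.0358 without stressed replicate 1. Dnaja1 ran from -0.0425 without stressed replicate 2 to 0.15, with -0.01 and -0.03 without non-stressed replicates 2 and 3, Hsph1 from -0.12 to 0.29 and Hspd1 from -0.0171 to 0.15. The causes were not tested. The log2 fold change of Hspa1a stayed positive without any 1 library, from 0.58 to 1.44, and that of Hspa1b from 0.56 to 1.52. The labels do not say that replicate numbers pair the libraries. Deviations of same-numbered libraries had r of 0.128, 0.156, -0.027, 0.118 and 0.124 for replicates 1 to 5, so 4 of 5 exceeded 0.1, against 4 of 20 other pairs. By these values 4 of 5 stressed and 3 of 5 non-stressed libraries correlated best with their own number, and Xist or Ddx3y was present in the same numbers of both groups, which is a hint from the data and not from the design. With the replicate block Hspa1a had 1.17, Hspa1b 1.39 and Fkbp5 an adjusted p of 0.0279 in edgeR. The 3 ratios of paralogs kept their direction when each library was left out, from 0.78 to 1.91 for the HSP70 genes, -0.21 to -0.04 for the HSP90 genes and 0.02 to 0.17 for the J-domain genes. Hspa1a had 49 to 991 reads per library, and genes at 0 reads are limited by depth.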
